A study of Rattus norvegicus with 12 samples.

Results

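The growth hormone, insulin-like growth factor (IGF) and insulin receptor genes Igf1, Igfbp1, Igfbp2, Igfbp3, Igfbp4, Igfals, Ghr, Socs2 and Insr were followed in rat liver. Every probe set whose only annotated symbol was 1 of these 9 names was taken, which gave 10 probe sets of the 15310 with a single symbol. Each gene had 1 probe set except Insr, which had 2, probe sets 10756229 and 10756251. All 10 matched the RefSeq gene table by Entrez ID.

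The livers came from 12 male diet-induced obese Sprague-Dawley rats, 4 on each of 3 diets, killed at 20 weeks of age after 8 weeks on the diet. All 3 diets were eaten freely, were high in fat and sucrose, held 4.6 kcal per g and drew 10% of energy from protein. In the dairy diet the protein came as skim milk powder. In the leucine diet 7.1% of energy was casein and 2.9% was free leucine, and in the casein diet, the control, all of the protein was casein. The leucine diet therefore held less casein than the control, so added leucine and removed casein cannot be told apart, and dairy brought milk components other than protein. Each liver's RNA was read on its own Affymetrix Rat Gene 1.0 ST array, and all signals below are deposited log2 values, so a difference of 1 is a doubling. One sample was read as 1 rat, which the labels do not state outright, and no lean or chow-fed group was used here.

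Pituitary growth hormone acts on the liver through its receptor, Ghr, the kinase JAK2 and the transcription factor STAT5, and the liver answers by making most of the circulating IGF-1. In blood IGF-1 is carried by binding proteins, chiefly in a complex with IGFBP3 and the acid-labile subunit encoded by Igfals, while Socs2 is a STAT5 target whose product damps growth hormone signalling. Insulin acts through its own receptor, Insr, and represses Igfbp1 in hepatocytes, so Igfbp1 is high in fasting and low after a meal. Protein intake is a known determinant of liver Igf1, Igfbp1 and Igfbp2 expression in rats.

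Igfbp1 and Igfbp3 are neighbours on rat chromosome 14, with 0 other genes between them in the RefSeq table, and are shown together because their signals behaved differently between livers. The 250 bases before each gene's start, from RefSeq (GRCr8), were searched on both strands for CAAAACA and TATTTTG, the core letters of the insulin response element known from Igfbp1, for GTAAACA, a forkhead motif, and for TTCNNNGAA, a STAT motif. Capitals mark the matches. The Igfbp1 sequence is chr14:86261027-86261276 on the plus strand and the Igfbp3 sequence is chr14:86277945-86278194 on the minus strand, each written 5′ to 3′ toward its gene.
Igfbp1: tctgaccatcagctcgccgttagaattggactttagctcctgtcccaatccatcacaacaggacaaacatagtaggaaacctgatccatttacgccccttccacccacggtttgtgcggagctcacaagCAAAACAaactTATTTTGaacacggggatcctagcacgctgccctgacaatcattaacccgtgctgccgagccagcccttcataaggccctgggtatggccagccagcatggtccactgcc
Igfbp3: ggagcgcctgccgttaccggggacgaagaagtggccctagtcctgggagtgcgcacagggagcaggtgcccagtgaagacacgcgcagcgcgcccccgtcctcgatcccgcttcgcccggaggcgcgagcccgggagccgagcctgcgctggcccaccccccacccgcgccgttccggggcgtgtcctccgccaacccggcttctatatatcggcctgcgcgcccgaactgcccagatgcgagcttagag

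In Igfbp1, CAAAACA began at position -121 from the gene's start and TATTTTG at -110, without overlap, and Igfbp3 held none of the 4 motifs. Of the 33469 promoters of this length, 5.46% held CAAAACA, 4.46% TATTTTG, 3.21% GTAAACA and 7.67% TTCNNNGAA. Of the 8 genes with a promoter entry, Igf1 also held CAAAACA, at -67, and Insr held GTAAACA, at -100. These matches describe letters in a window and were not tied to binding.

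No single probe set of the 10 passed the test in any comparison of diets. The test was limma's, fitted on all 12 livers, with Benjamini-Hochberg adjustment across all 15310 probe sets and a threshold of 0.05. By the same rule 0.0849% of all probe sets were called between dairy and casein, 0% between leucine and casein and 0% between leucine and dairy. An F test over the 3 diets called 0 of the 10 and 0.0327% of all. At an unadjusted p under 0.05, 2 of the 10 differed between dairy and casein (Igf1 and Insr probe set 10756251), against 10.9% of all probe sets. On that count 0 of the 10 differed between leucine and casein, against 3.31% of all, and 1 (Igf1) between leucine and dairy, against 6.95%. The 2 comparisons with casein share the casein livers. When arrays were weighted by quality, Igf1 and Insr probe set 10756251 passed between dairy and casein (limma adjusted p = 0.0229 and 0.0201), as did 1182 of all probe sets.

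The 4 values of one diet lay wholly apart from those of the other for 0 of the 10 between dairy and casein, against 4.27% of all probe sets. For leucine and casein it was 0 of the 10, against 2.44%, and for leucine and dairy 1 of the 10, against 5.09%. That 1 probe set was Igf1. Mean signals were higher with dairy than with casein for 4 of the 10 and lower for 6, with a median difference of -0.101 against -0.0224 over all probe sets.

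**Figure D1:**
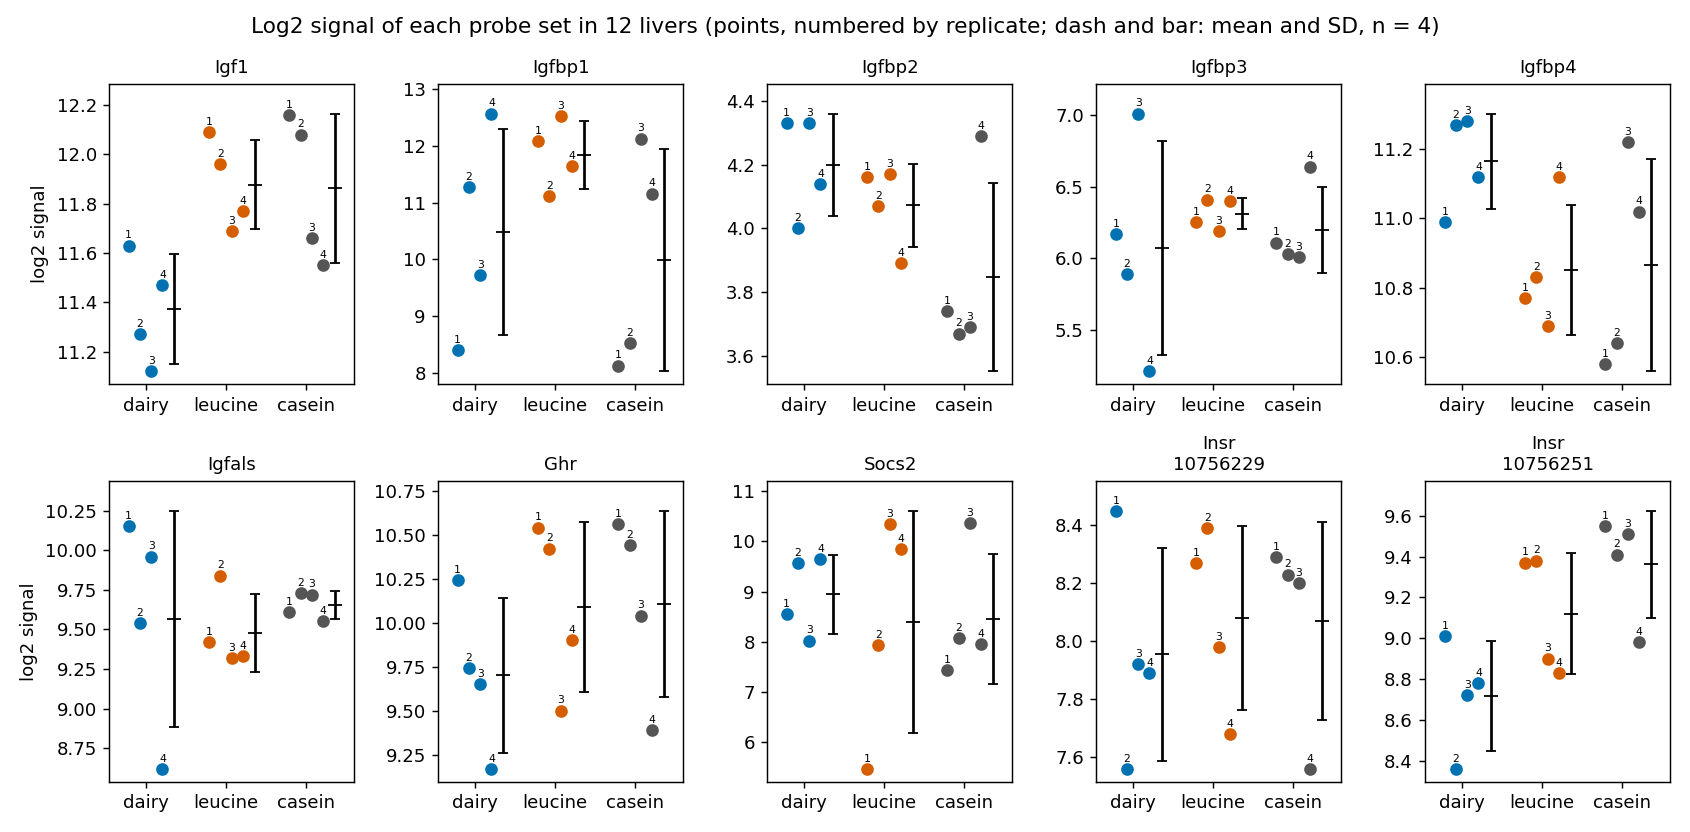
Log2 signal of the 10 probe sets in each of the 12 livers, by diet (dairy, leucine, casein), with the replicate number beside each point and the group mean ± SD (n = 4). Igfbp1 spreads widely in dairy and casein livers and less in leucine livers, Socs2 spreads most among leucine livers, and Igf1 lies lower in all 4 dairy livers than in the 4 leucine livers.

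Igf1, the main hormone made by liver under growth hormone, was at 11.63, 11.27, 11.12 and 11.47 in dairy livers, 12.09, 11.96, 11.69 and 11.77 in leucine livers and 12.16, 12.08, 11.66 and 11.55 in casein livers. The highest dairy liver lay below every leucine liver and above 1 of the 4 casein livers. The group means were 11.37 ± 0.227 with dairy, 11.88 ± 0.18 with leucine and 11.86 ± 0.3 with casein (SD, n = 4 each).

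The dairy mean was lower than the casein mean by a log2 difference of -0.49 ± 0.178 (SE), a 1.41-fold lower signal, with a limma adjusted p of 0.365 and an exact permutation p of 0.0571. Leucine was above dairy by 0.50 ± 0.178, or 1.42-fold, with a limma adjusted p of 0.657, and the exact permutation p was 0.0286, the smallest that 4 against 4 livers can give. Leucine and casein were close, with a difference of 0.01 and a 95% confidence interval of -0.38 to 0.40. An interval of this width does not show equal levels.

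Igf1 signals moved with those of hepatocyte genes. The mean signal of 14 hepatocyte markers, all of them measured, was 12.20 to 12.61 in dairy livers, 12.27 to 12.68 in leucine livers and 12.33 to 12.80 in casein livers, and its correlation with Igf1 over the 12 livers was r = 0.87 (permutation p = 0.00028, adjusted p = 0.0247 over 90 relations between probe sets and array measures). Spearman's rho was 0.78 (permutation p = 0.00365, adjusted p = 0.0891). Without the 2 livers farthest from the median r was 0.80, and between deviations from the diet means it was 0.91. With single livers left out r was 0.83 to 0.92, and the relation did not pass without dairy replicate 3 or leucine replicate 2 (highest permutation adjusted p = 0.0717). Igf1 also correlated with the SD of all signals on an array, at r = 0.64 (permutation p = 0.0204, adjusted p = 0.182). Without the 2 arrays farthest from the median SD, r was 0.36. Dairy replicate 3, the array of narrowest spread (SD 2.07), held the lowest Igf1 signal (11.12) and the lowest marker mean (12.20). The part of the marker level or of the array's spread in the Igf1 difference was not tested. In bulk liver RNA, fewer cells of a type and less RNA per cell cannot be told apart.

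Igfbp1, the insulin-repressed binding protein, was at 8.40, 11.27, 9.72 and 12.57 in dairy livers, 12.08, 11.12, 12.52 and 11.65 in leucine livers and 8.13, 8.53, 12.13 and 11.16 in casein livers. The 4 leucine livers were all at 11.12 or more, while dairy and casein each held livers on both sides of that level. From the lowest to the highest liver Igfbp1 ranged over 4.44 log2 units, or 21.7-fold.

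The leucine mean exceeded the casein mean by 1.86 ± 0.957 (SE), a 3.62-fold higher signal with a 95% confidence interval of 0.859 to 15.3-fold. It did not pass the test (limma adjusted p = 0.999, exact permutation p = 0.2). The log2 difference was 1.24 without casein replicate 1, 2.57 without casein replicate 3 and 2.83 with array weights. The within-diet SD of Igfbp1 was 1.58, larger than that of 99.5% of all probe sets, for which the median was 0.295. Within diets lay 75.3% of its variance. The lowest shares of the 10 probe sets were 44.3% for Igf1 and 44.7% for Insr probe set 10756251. Even where diets do not differ, most of the variance is expected to lie within diets, so a high share is not a finding by itself.

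Igfbp2, another binding protein, had a dim signal, with a mean of 4.04 over the 12 livers that stood at percentile 32.4 of all probe sets. Its values were 4.33, 4.00, 4.33 and 4.14 in dairy livers, 4.16, 4.07, 4.17 and 3.89 in leucine livers and 3.74, 3.67, 3.69 and 4.29 in casein livers. Casein replicate 4 stood apart from the other 3 casein livers, which were below every dairy and leucine liver. Dairy exceeded casein by 0.35 ± 0.162 (limma adjusted p = 0.458, exact permutation p = 0.0857).

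Igfbp4, a binding protein made in liver and many other tissues, was at 10.99, 11.27, 11.28 and 11.12 in dairy livers, 10.77, 10.83, 10.69 and 11.12 in leucine livers and 10.58, 10.64, 11.22 and 11.02 in casein livers. The dairy values overlapped both other diets. The difference was 0.30 ± 0.169 for dairy over casein (limma adjusted p = 0.529) and -0.31 ± 0.169 for leucine over dairy (limma adjusted p = 0.738).

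Igfbp3 and Igfals encode the partners of IGF-1 in the large circulating complex. Igfbp3 ran from 5.21 to 7.01 in dairy livers, 6.19 to 6.41 in leucine livers and 6.01 to 6.64 in casein livers. Igfals ran from 8.62 to 10.15 in dairy livers, 9.32 to 9.84 in leucine livers and 9.55 to 9.73 in casein livers. For both genes the dairy livers spanned the widest range and the diet means lay close together. The dairy minus casein difference was -0.13 ± 0.299 for Igfbp3 and -0.09 ± 0.274 for Igfals, and within-diet variation made up 94.3% and 96.3% of their variance.

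Ghr, the growth hormone receptor, was at 10.24, 9.74, 9.65 and 9.17 in dairy livers, 10.54, 10.42, 9.50 and 9.90 in leucine livers and 10.56, 10.44, 10.04 and 9.39 in casein livers. All 3 diets overlapped. Dairy was below casein by -0.41 ± 0.309, with a 95% confidence interval of -1.08 to 0.26 (limma adjusted p = 0.646). It was -0.231 without dairy replicate 4, -0.257 without casein replicate 1, -0.646 without casein replicate 4 and -0.713 with array weights.

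Socs2, the feedback inhibitor, was at 8.55, 9.56, 8.02 and 9.64 in dairy livers, 5.46, 7.93, 10.35 and 9.84 in leucine livers and 7.43, 8.07, 10.36 and 7.95 in casein livers. The lowest value was in leucine replicate 1, and the highest were in casein replicate 3 and leucine replicate 3. The range over the 12 livers was 4.90 log2 units, or 29.9-fold, and 96.7% of the variance lay within diets. The dairy minus casein difference was 0.49 with a 95% confidence interval of -1.55 to 2.53. An interval of this width does not exclude a several-fold difference in either direction.

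Neutrophil and acute phase genes were high in the same livers as Socs2. The mean signal of 12 neutrophil markers was 3.72, 5.05, 4.10 and 5.50 in dairy livers, 3.58, 3.99, 5.35 and 4.77 in leucine livers and 3.47, 3.65, 5.02 and 4.21 in casein livers. The mean of 18 acute phase genes was 12.11, 12.67, 11.71 and 12.63 in dairy livers, 11.11, 12.18, 12.48 and 12.50 in leucine livers and 12.03, 11.06, 12.48 and 12.18 in casein livers. Dairy replicates 2 and 4, leucine replicates 3 and 4 and casein replicate 3 held the 5 highest values of Socs2 and of both lists. Over the 12 livers Socs2 correlated with the neutrophil mean at r = 0.84 (permutation p = 0.00055, adjusted p = 0.0247 over the 90 relations) and rho = 0.79 (permutation p = 0.00314, adjusted p = 0.0891), with r = 0.82 without the 2 livers farthest from the median and 0.85 between deviations from the diet means. With the acute phase mean it correlated at r = 0.79 (permutation p = 0.00098, adjusted p = 0.0294) and rho = 0.66 (permutation p = 0.0216, adjusted p = 0.165), with r = 0.80 and 0.79 on the same 2 checks. Between these 5 livers and the rest, the neutrophil means left a gap from 4.21 to 4.77 and the acute phase means one from 12.18 to 12.48. The acute phase means had a wider gap lower down, from 11.11 to 11.71. Leaving out single livers gave r of 0.81 to 0.89 for neutrophil markers, a relation lost without dairy replicate 3 or leucine replicate 2 or 3 (highest permutation adjusted p = 0.0717), and of 0.67 to 0.91 for the acute phase, called in 3 of the 12 cases and lost without any one of the 4 dairy livers, the 4 leucine livers or casein replicate 3 (highest permutation adjusted p = 0.138). Socs2 was not the only member to follow the neutrophil mean, though the relations of Ghr and Igfbp1 did not pass. Ghr gave r = -0.78 (permutation adjusted p = 0.0801) and rho = -0.85 (permutation adjusted p = 0.0576). Igfbp1 gave r = 0.75 (permutation adjusted p = 0.116) and rho = 0.76 (permutation adjusted p = 0.0891). The part of either list in the signals of these 3 genes was not tested.

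**Figure D2:**
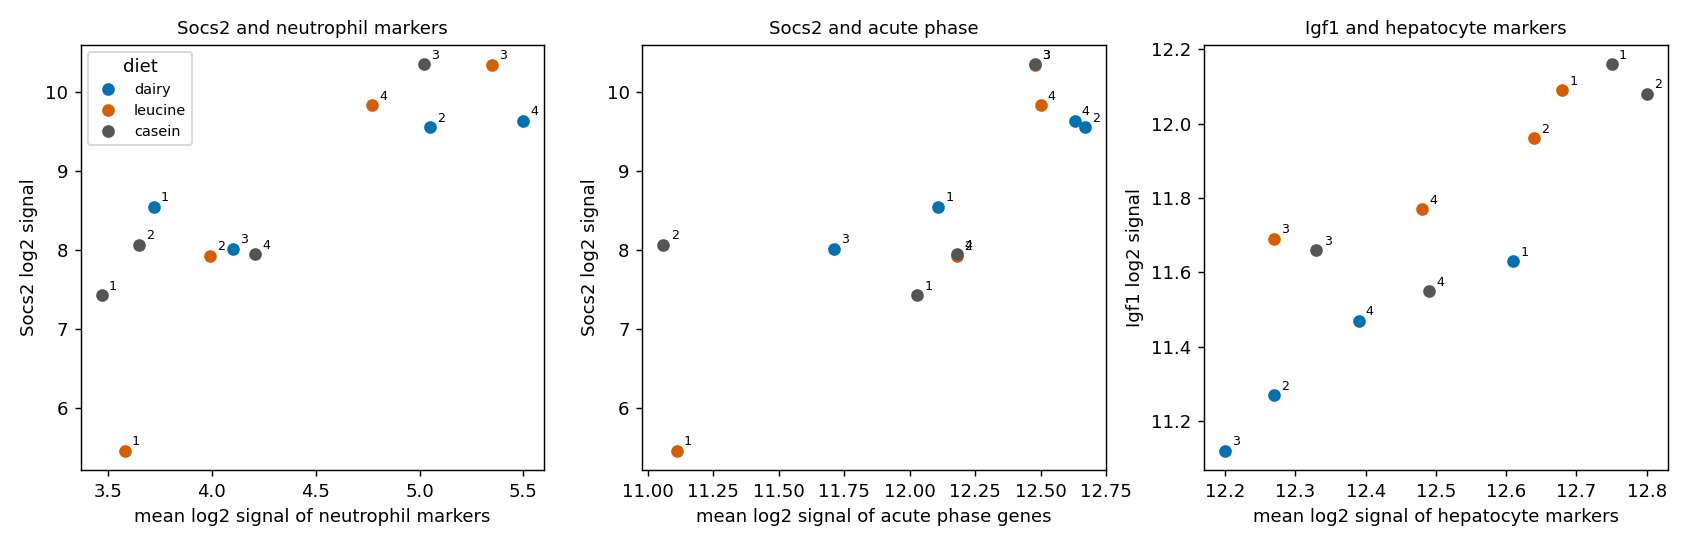
Log2 signals of members plotted against the mean log2 signal of marker lists, 1 point per liver, coloured by diet. Igf1 lies higher where hepatocyte markers are higher, and dairy 2 and 4, leucine 3 and 4 and casein 3 are highest for Socs2, neutrophil markers and acute phase genes alike.

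Insr, the insulin receptor, gave 1 difference between diets that passed adjustment without array weights, in the contrast between its 2 probe sets within a liver. Probe set 10756251 was at 9.01, 8.36, 8.72 and 8.78 in dairy livers, 9.37, 9.38, 8.90 and 8.83 in leucine livers and 9.55, 9.41, 9.51 and 8.98 in casein livers. Only 1 dairy liver reached above the lowest casein liver. Dairy was below casein by -0.64 ± 0.195 (SE; 95% confidence interval -1.07 to -0.22), a 1.56-fold lower signal, with a limma adjusted p of 0.301 and an exact permutation p of 0.0571.

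Probe set 10756229 was at 8.45, 7.56, 7.92 and 7.89 in dairy livers, 8.27, 8.39, 7.98 and 7.68 in leucine livers and 8.29, 8.23, 8.20 and 7.56 in casein livers. These values overlapped throughout. Its dairy minus casein difference was -0.12 ± 0.23, with a 95% confidence interval of -0.62 to 0.38. The annotation ties probe set 10756229 to the Insr reference mRNA and probe set 10756251 to a separate cDNA record, and which exons each covers is not given in the sources used here.

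The difference between the Insr probe sets was then taken within each liver, a measure chosen after the values had been seen. Probe set 10756251 exceeded 10756229 by 0.57, 0.80, 0.80 and 0.89 in dairy livers, by 1.10, 0.99, 0.92 and 1.14 in leucine livers and by 1.26, 1.17, 1.31 and 1.42 in casein livers. The 3 diets did not overlap, with dairy lowest, leucine between and casein highest. The means were 0.76 ± 0.139 with dairy, 1.04 ± 0.103 with leucine and 1.29 ± 0.106 with casein (SD, n = 4 each).

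For context, the same within-liver difference was computed for all 1742 pairs of probe sets that share a gene, from 509 genes. Between dairy and casein the Insr difference was -0.53 ± 0.0797 (SE; 95% confidence interval -0.70 to -0.35), lower in all 4 dairy livers, and it passed limma's test over the 1742 pairs (adjusted p = 0.0144). It ranked 5 of the pairs by p, and 0.861% of pairs were called. The 15 called pairs came from 7 genes, of which 5 encode ribosomal proteins and the other two were Insr and Isca1. The call was lost without casein replicate 1 (limma adjusted p = 0.0585) and without casein replicate 3 (limma adjusted p = 0.0512), with differences of -0.539 and -0.522. It was also lost when only the dairy and casein livers were fitted (limma adjusted p = 0.101, and 0.349 with the replicate number as a block).

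Leucine against casein gave -0.25 ± 0.0797 for the Insr probe set difference (limma adjusted p = 0.238), where 0.287% of pairs were called. Leucine against dairy gave 0.27 ± 0.0797 (limma adjusted p = 0.996), where 0% were called. Groups that do not overlap were found for 8.27% of pairs between dairy and casein, 7.86% between leucine and casein and 4.08% between leucine and dairy. Since the measure was chosen on these same livers, it is a description to be tested on others, and it does not tell which probe set changed or whether a transcript form did.

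**Figure D3:**
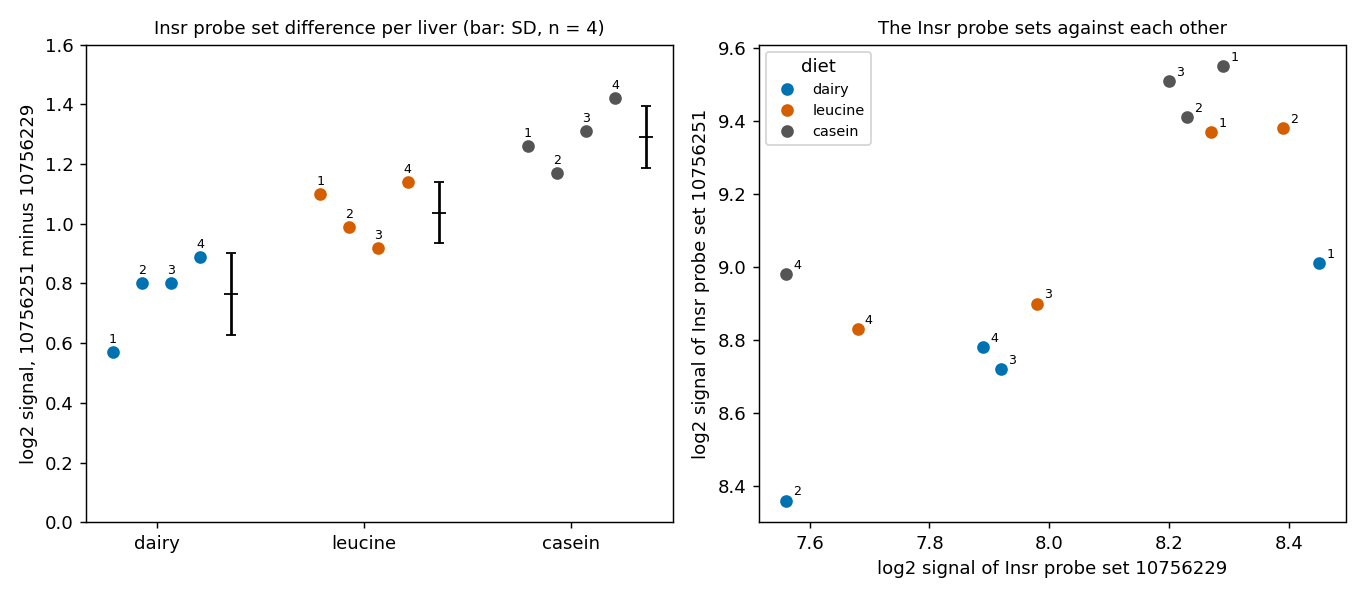
Left, the log2 signal of Insr probe set 10756251 minus that of 10756229 in each liver, by diet, with mean ± SD (n = 4): the 4 dairy livers lie at 0.57 to 0.89, the 4 leucine livers at 0.92 to 1.14 and the 4 casein livers at 1.17 to 1.42. Right, the probe sets against each other, where at a given 10756229 signal the casein livers lie highest.

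**Figure D4:**
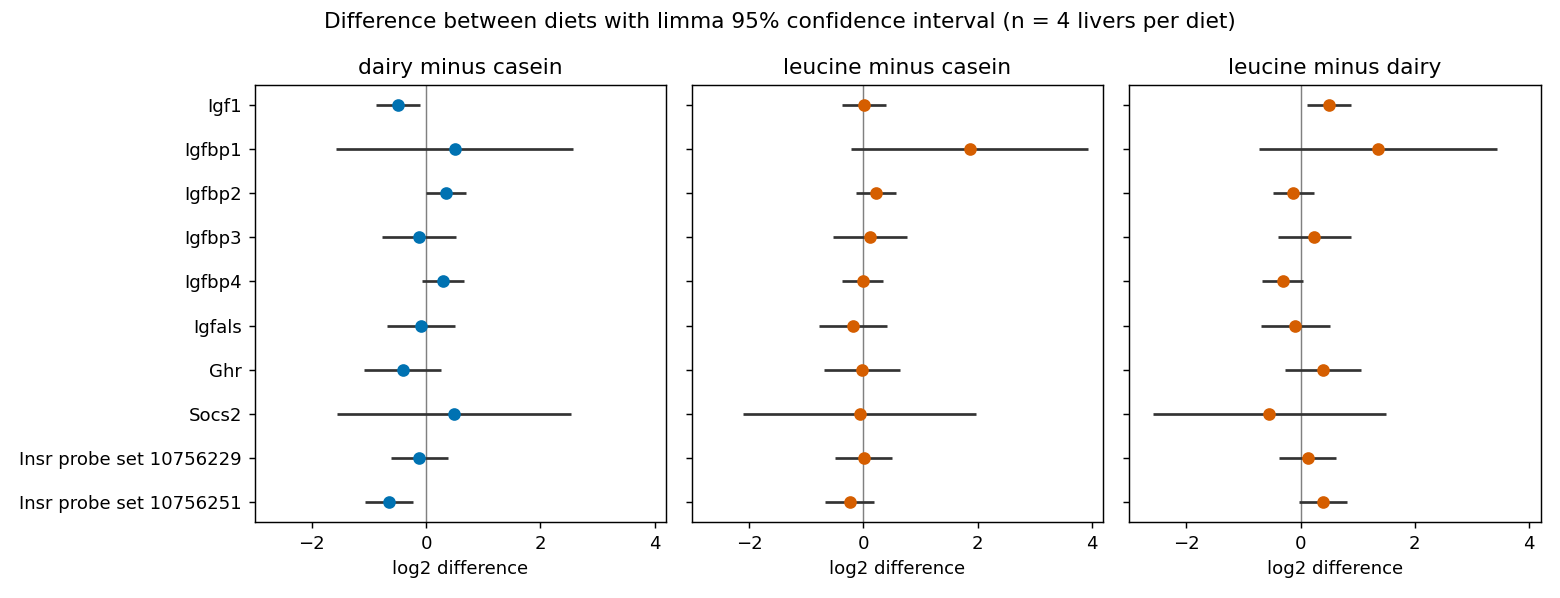
Log2 difference between diets for each probe set with its limma 95% confidence interval (n = 4 livers per diet). The intervals of Igf1 and Insr probe set 10756251 exclude 0 for dairy minus casein. For leucine minus dairy the Igf1 interval also excludes 0 (0.12 to 0.89). The intervals of Igfbp1 and Socs2 are the widest, and no difference passed the adjusted test.

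Between livers, both correlations among members that passed the test involved Igf1. Of the 45 pairs of probe sets, 2 had a correlation that passed adjustment over the 45. Igf1 and Igfbp4 ran in opposite directions, with r = -0.85 (permutation p = 0.0006, adjusted p = 0.0236) and rho = -0.85 (permutation p = 0.00076, adjusted p = 0.0342), and r was -0.77 without the 2 livers farthest from the median Igf1 signal. Igf1 and Insr probe set 10756251 ran together, with r = 0.82 (permutation p = 0.00105, adjusted p = 0.0236) and rho = 0.78 (permutation p = 0.00461, adjusted p = 0.0541), and r was 0.80 without those 2 livers.

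Between deviations from the diet means neither pair passed. Igf1 and Igfbp4 then gave r = -0.75 (permutation adjusted p = 0.0677) and Igf1 and Insr probe set 10756251 gave r = 0.70 (permutation adjusted p = 0.0837). The Insr probe sets were the only pair called within diets, with r = 0.95 (permutation adjusted p = 0.00045), against a pooled r of 0.75. With any 1 of casein replicates 1 or 2, dairy replicates 2, 3 or 4, or leucine replicates 1 or 2 left out, 0 of the 45 pairs were called, and over 16 alternatives r ran from -0.91 to -0.75 for Igf1 with Igfbp4 and from 0.70 to 0.91 for Igf1 with Insr probe set 10756251. Ghr and Igf1, receptor and target, gave r = 0.76 (permutation adjusted p = 0.0545). Igfbp1 and its neighbour Igfbp3 gave r = -0.24.

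**Figure D5:**
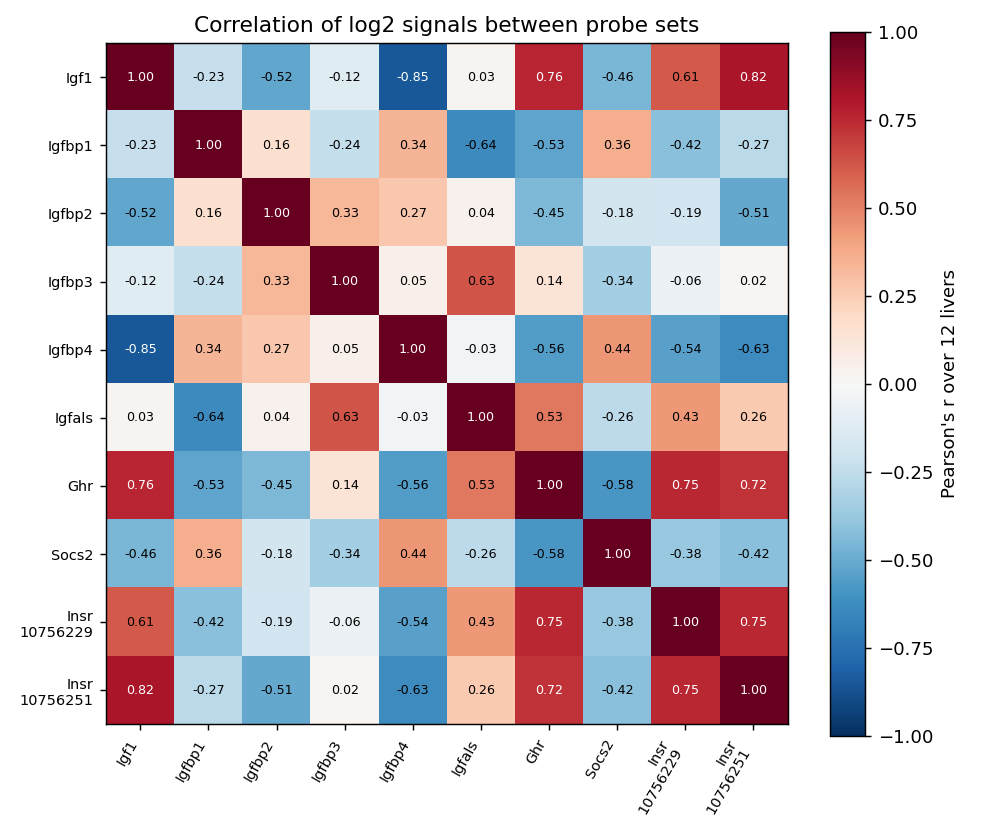
Pearson's r over the 12 livers for every pair of the 10 probe sets. The lowest value is -0.85 for Igf1 with Igfbp4 and the highest 0.82 for Igf1 with Insr probe set 10756251.

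The genes whose signal was most like a member's over the 12 livers, by Pearson's r, are given as a description, since each was picked from all probe sets for its likeness. For Igf1 they were Hsf2 (r = 0.968), Chpt1 (0.961) and Adnp (0.959). For Igfbp1 they were Myc (0.965), Pim3 (0.940) and Ppp1r15a (0.939), which encode a growth transcription factor, a kinase and a stress-induced phosphatase subunit. Myc ran from 5.09 to 8.70 over the livers, with means of 7.02 for dairy, 7.75 for leucine and 6.28 for casein.

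For Igfbp2 the most similar genes were Cox8a (0.923), Hist1h2bg (0.913) and Atp4b (0.906), and for Ghr they were Ttc17 (0.972), Slc25a16 (0.963) and Abat (0.963). Socs2 was most like Tcof1 (0.959), Pik3ap1 (0.944) and Fgfr2 (0.926). Insr probe set 10756251 was most like Pnisr (0.938), Clcc1 (0.938) and Idh3a (0.928). All of these share the same 12 arrays.

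The rest of the pathway also held no called gene, in any of 5 lists and 3 comparisons. Of all probe sets, 0.0849% were called between dairy and casein and 0% in either comparison with leucine. At such shares a list of this size would hold few or no calls in any case. The counts of calls therefore cannot tell whether a list stood apart. Among insulin-responsive liver genes, 14 of 18 were measured, and all 14 had lower means with dairy than with casein (median -0.509, against -0.0224 over all probe sets). With leucine 13 of the 14 were lower than with casein (median -0.404, against -0.0288). Hepatocyte markers were lower in 13 of 14 with dairy and in 12 of 14 with leucine, and neutrophil markers were higher in 11 of 12 and in 10 of 12, each against casein; their part in the list's shift was not tested. The lowest p in that list for dairy belonged to Ppargc1a, the coactivator of fasting gluconeogenesis, at 3.78 ± 0.239 with dairy and 4.88 ± 0.726 with casein (difference -1.10 ± 0.329, limma adjusted p = 0.295). The list mixes genes that insulin induces and genes that it represses: Fasn, an induced one, differed by -1.04 ± 0.832 and G6pc1, a repressed one, by -1.84 ± 1.44 between leucine and casein (limma adjusted p = 0.999 each).

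Of the insulin receptor signalling genes 31 of 36 were measured, with 11 higher and 20 lower for dairy over casein. Trib3, an inhibitor of Akt, was at 5.91 ± 0.305 with dairy and 4.75 ± 0.199 with casein (difference 1.16 ± 0.306, limma adjusted p = 0.228). Gsk3b, the kinase that insulin restrains, was at 7.27 ± 0.408 with dairy and 8.08 ± 0.278 with casein (difference -0.82 ± 0.25, limma adjusted p = 0.305). For both genes, named for their low p, the 4 dairy livers lay wholly apart from the 4 casein livers, as for 3 of the 31 in the list and 4.27% of all probe sets.

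Of the other IGF system genes 14 of 17 were measured, with 8 higher and 6 lower for dairy over casein. Igf2, the fetal growth factor of the family, was dim at 4.78 ± 0.165 with dairy and 4.26 ± 0.253 with casein (difference 0.52 ± 0.158, limma adjusted p = 0.301). Of the growth hormone receptor signalling genes 14 of 17 were measured, 7 higher and 7 lower. Prlr, the prolactin receptor, was at 5.02 ± 1.00 with dairy and 6.25 ± 0.474 with casein (difference -1.24 ± 0.471, limma adjusted p = 0.381).

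Genes that depend on the pattern of growth hormone secretion numbered 13 measured of 18, with 5 higher and 8 lower for dairy over casein and 11 higher and 2 lower for leucine over casein. Cyp2c12, a female-typical cytochrome P450 of rat liver, was at 7.06 ± 0.87 with dairy and 9.10 ± 0.695 with casein (difference -2.04 ± 0.663, limma adjusted p = 0.32). For this gene, named for its low p, the groups did not overlap, as for 1 of the 13 in the list and 4.27% of all probe sets. Cyp2c13, a male-typical one, was at 11.54 ± 0.279 with leucine and 10.99 ± 0.382 with casein (difference 0.55 ± 0.202, limma adjusted p = 0.999). Members of this cytochrome family are close in sequence, so which of them a probe set reads is uncertain.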

How the data were processed

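Liver RNA of 12 samples, each read as 1 rat, was hybridised to Affymetrix Rat Gene 1.0 ST arrays. The authors deposited log2 values, 1 per probe set and array, for which the submitters' processing notes name Affymetrix Expression Console. For that program's version, its summarisation and normalization method and the build, the answer is the same: not given in the sources used here. Over the named probe sets, column medians ran from 5.233 to 5.412 and column SDs from 2.07 to 2.40, so the arrays did not share 1 distribution, and dairy replicate 3 and casein replicate 4 (2.17) had the narrowest spread. Correlations between arrays ran from 0.9323 to 0.9896. The number of arrays limits the precision.

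Of 29214 probe sets, 15310 had exactly 1 symbol in the platform annotation (14506 genes), 323 had several and 13581 were not listed; the last 2 kinds were left out. Diets were compared with limma 3.58.1 in R 4.3.3 (group means over 12 arrays, eBayes with 9 residual and 3.448 prior degrees of freedom, two-sided, Benjamini-Hochberg over the 15310). The fit was tested on simulated data. Exact two-sided permutation tests and correlations (100000 resamples) used Python 3.11.15 and scipy 1.17.1. The labels do not state that each sample is a separate rat, so p-values set each difference against the spread between these samples.

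All members are named. For Igf1, Igfbp1, Igfbp2, Ghr, Socs2 and Insr, the 3 probe sets of highest r are named, and from each of 5 pathway lists up to 2 genes of lowest unadjusted p in each comparison with casein qualified. The members, lists and marker sets were chosen with earlier results of these data known. Array measures were the column SD and marker means of 8 lists. These were the hepatocyte, neutrophil and acute phase lists and those for endothelial cells, macrophages, stellate cells and matrix, cholangiocytes and erythroid cells. Each of the 8 had 0 members called in any comparison. Of all probe sets, 0.0849% were called between dairy and casein and 0% in either comparison with leucine. The list of 5 ribosomal protein genes, picked for being higher with dairy, had 3 called between dairy and casein and supports nothing here. Same-numbered leucine and casein livers deviated together from their diet means (all 4 correlations over 0.1, 0.21 to 0.53). For dairy the numbers did not pair (1 of 4 over 0.1 with casein, 2 of 4 with leucine). Only 2 of the 12 arrays were closest to an array of their own number. Any pairing would thus be read from the data and not from the labels, and it is uncertain. All tests are unpaired except the alternative fits named as using the replicate number or block. Alternatives covered normalization, filters, weights, covariates, the replicate block and leaving out each liver.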

Additional observations from a re-analysis of the deposited data

Results flagged for a closer look

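In 3 of the 30 sets of 4 livers examined (10 probe sets in 3 diets), 1 liver stood far from the other 3, with a gap to the nearest that took up more of the whole range than Dixon's 95% limit allows. Chance flags about 1 in 20 such sets. All 3 were casein replicate 4, 1 of the 2 arrays with the narrowest spread of signals. Its Igfbp2 signal was 4.29, above the other casein livers, with a gap of 0.885 of the range. Its Igfbp3 signal was 6.64, also above them, with a gap of 0.843. Its signal of Insr probe set 10756229 was 7.56, below them, with a gap of 0.875.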

How the results depend on the processing

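With array weights, 2 of the 10 probe sets were called between dairy and casein, Igf1 (-0.658, limma adjusted p = 0.0229) and Insr probe set 10756251 (-0.857, limma adjusted p = 0.0201), and the same 2 in the F test, while 1182 of all 15310 probe sets were called between dairy and casein and 418 in the F test. In the other alternatives run 0 of the 10 were called; the count over all probe sets between dairy and casein, 13 as reported, was 39 after quantile normalization, 8 with a trended and robust fit, 6 with only those 2 diets fitted (0 with the replicate block too), 3 without casein replicate 1 or without dairy replicate 1, 42 over all probe sets in the file, 164 without the 2 arrays of narrowest spread (an alternative added after the data were seen) and 237 without casein replicate 4. The number of correlated pairs called was 2, 1 between deviations from diet means, 1 after quantile normalization, 0 without the 2 narrow arrays, and 0 to 3 when each liver was left out. With the replicate block over all 12 livers 0 of the 10 were called, and the Insr probe set difference of -0.528 between dairy and casein had a limma adjusted p of 0.0321; a balanced block cannot move the difference itself. A fit of leucine and casein livers alone with the replicate block, which treats the numbers as pairs, was also added after the data were seen. It called 0 of the 10, with the lowest limma adjusted p of 0.826 for Igfbp1 (1.86 ± 0.541, SE). The Insr probe set difference had a limma adjusted p of 0.283 in this fit. The block changed no call among the 10, while over all probe sets 1 was called with it and 0 without it.

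Each of the 30 differences between diets had 13 alternatives that could move it, the others leaving group means as they are; 16 kept their sign under all 13 and 14 did not; none of the 14 had passed the test, and the cause was not tested. Quantile normalization turned dairy minus casein to 0.0242 for Igfbp3, 0.00276 for Igfals and 0.00966 for Insr probe set 10756229, and leucine minus casein to -0.0121 for Igf1 and 0.00913 for Igfbp4. Median centring turned leucine minus casein to 0.0525 for Igfbp4, 0.0469 for Ghr and 0.00476 for Socs2. Array weights turned it to -0.154 for Igf1, 0.144 for Igfbp4, 0.372 for Socs2 and -0.124 for Insr probe set 10756229, and leucine minus dairy to 0.0836 for Igfals. The acute phase covariate turned dairy minus casein to -0.00189 for Socs2. Without the narrow arrays leucine minus casein was -0.0928 for Igf1, 0.042 for Igfbp4 and -0.161 for Insr probe set 10756229, and leucine minus dairy 0.0403 for Igfals.

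Leaving out each liver gave, for dairy minus casein, -0.189 to 1.22 for Igfbp1, -0.438 to 0.161 for Igfbp3, -0.282 to 0.231 for Igfals and -0.287 to 0.0145 for Insr probe set 10756229. For leucine minus casein it gave -0.0928 to 0.11 for Igf1, -0.107 to 0.107 for Igfbp4, -0.255 to 0.18 for Ghr, -0.709 to 0.92 for Socs2 and -0.161 to 0.141 for Insr probe set 10756229. For leucine minus dairy it gave -0.0419 to 0.557 for Igfbp3, -0.408 to 0.105 for Igfals, -1.2 to 0.428 for Socs2 and -0.00471 to 0.29 for Insr probe set 10756229.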
